A study of Mus musculus with 23 samples.

Results

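The genes described here code for 9 proteins that salivary glands release into saliva, Mucl2, Dcpp1, Dcpp2, Dcpp3, Smr3a, Lpo, Amy1, Bpifa2 and Pip. They were chosen by symbol, with each symbol matched to 1 Ensembl identifier of the deposited count table, and so make up 9 of 53402 genes in it. A filter on low counts left 19310 genes for testing, and 6 of the 9 passed it (Mucl2, Dcpp1, Dcpp3, Lpo, Amy1 and Bpifa2). The other 3 (Dcpp2, Smr3a and Pip) had too few counts and are described by their values.

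Saliva is made by acinar and duct cells of the parotid, submandibular and sublingual glands, which fill secretory granules with enzymes, mucin-like glycoproteins and antimicrobial proteins. The thymus does not secrete saliva, but its medullary epithelial cells (mTECs) are known to transcribe genes of many peripheral organs and to display the peptides to developing T cells. Aire is a nuclear protein of mTECs that is known to be needed for the transcription of many such genes, and salivary glands are among the organs attacked in Aire-deficient mice.

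RNA was sequenced from mTECs of C57BL/6 mice, sorted as live thymic epithelium lacking CD45 and Ly51 and split by surface MHC class II into a high gate (mTEChi) and a low gate (mTEClo). There were 8 wild-type (WT) mTEClo libraries (5 male and 3 female, 5 from mice of 4 weeks and 3 of 5 weeks) and 7 WT mTEChi libraries (5 male and 2 female, 2 of 4 weeks and 5 of 5 weeks). Aire knockout (AireKO) mice gave 4 libraries in each gate, all male, 2 of 5 weeks and 2 of 6 weeks. No other allele or agent was named for any group, and nothing said whether libraries came from separate animals, so the p-values measure only the spread between these libraries, which may be technical. In AireKO mTEChi the chi-square per gene between library counts was 1.34 within the 5-week pair and 1.28 within the 6-week pair. Across these pairs it was 4 to 6.39. In AireKO mTEClo it was 1.62 and 3.99 within such pairs and 6.28 to 12.2 across them. WT libraries also fell into sets. In WT mTEChi it was 1.23 between replicates 1 and 2, 1.41 to 1.92 among replicates 3, 4 and 5, and 1.7 between replicates 6 and 7. Across these sets it was 2.87 to 4.15. In WT mTEClo it was 1.42 between replicates 1 and 2, 1.6 between 3 and 4, and 1.4 between 7 and 8, with up to 4.59 between other libraries. The tests, permutation tests included, treat libraries of a group as independent, so p-values may be too small. The library chemistry keeps no strand, so overlapping genes on either strand can exchange reads. The genes that share exon bases with a member, named below, all lie on its own strand.

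Library totals ran from 1628778 to 3883437 counts in WT mTEClo, from 1639231 to 3938588 in AireKO mTEClo, from 1602125 to 3231079 in WT mTEChi and from 2528049 to 3106026 in AireKO mTEChi, and 6 libraries, none of them AireKO mTEChi, held under 2000000 counts. Levels are given as CPM, gene counts scaled to library size with TMM factors, and a level of 0 in a whole group allows up to 0.121, 0.277, 0.160 and 0.290 CPM in these 4 groups in the same order (3 counts over the group, counting error only). Aire itself lay between 746 and 914 CPM in WT mTEChi and between 16.6 and 38.1 in AireKO mTEChi, and between 19.2 and 128 CPM in WT mTEClo and 0 and 7.63 in AireKO mTEClo. Of 9 markers fixed for mTECs none was at 0 in any group, and their summed level ran from 2020 to 2284 CPM in WT mTEChi and from 1171 to 1381 in AireKO mTEChi, Aire included.

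The 3 Dcpp genes, which code for the demilune cell and parotid proteins of sublingual and parotid gland, are near-identical neighbours on chromosome 17. The stretches just before their RefSeq starts are shown because they make plain how alike the copies are there. They lie before the start and so do not show which copy a read came from. The stretches of 149 or 150 bases come from RefSeq's 300-base start windows of GRCm38.p6, on the plus strand, and capitals mark bases that differ from Dcpp1 or are absent in it. They lie at chr17:23880726-23880875 for Dcpp1, chr17:23898567-23898716 for Dcpp2 and chr17:23917305-23917453 for Dcpp3. The Dcpp2 stretch lies inside the annotated Dcpp2 gene model given below, which starts elsewhere.
Dcpp1: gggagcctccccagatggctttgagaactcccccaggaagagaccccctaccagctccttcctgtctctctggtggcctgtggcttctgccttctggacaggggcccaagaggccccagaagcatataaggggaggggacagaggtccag
Dcpp2: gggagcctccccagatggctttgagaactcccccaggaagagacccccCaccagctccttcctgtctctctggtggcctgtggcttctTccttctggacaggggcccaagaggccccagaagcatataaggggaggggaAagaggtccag
Dcpp3: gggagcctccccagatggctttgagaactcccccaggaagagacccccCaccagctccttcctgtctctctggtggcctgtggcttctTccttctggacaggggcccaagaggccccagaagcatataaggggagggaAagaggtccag
Each of the later copies carried 3 capitals against Dcpp1, and a base that Dcpp3 lacks is not marked. Over the whole start windows the copies were 93.8% (Dcpp1 and Dcpp2), 95.1% (Dcpp1 and Dcpp3) and 96.4% (Dcpp2 and Dcpp3) identical, and over the coding sequence 93.8%, 93.2% and 95.3% in the same order.

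This likeness can reach the counts. Of all 50-base windows in the annotated exons, 46.5% in Dcpp1, 44.2% in Dcpp2 and 45.8% in Dcpp3 also occurred in another Dcpp gene. The annotated Dcpp2 gene model (chr17:23880880-23900788) spans Dcpp1 (chr17:23880876-23882853) and shares 30 exon bases with it, and Dcpp3 lies at chr17:23917458-23919441. Values of single Dcpp genes are therefore uncertain, and their sum is given beside them. Smr3a (chr5:88002549-88008534), a submaxillary gland protein regulated by androgen, shared 41.8% of its windows with Gm28434, a gene model with 316 exon bases in common with it. Amy1 (chr3:113555710-113606699), which codes for the starch-cleaving amylase of saliva, shared 33.3% of its windows with other genes. Among them were Rnpc3 and the amylase genes Amy2b, Amy2a2, Amy2a3 and Amy2a4. Rnpc3, an RNA-binding protein of the minor spliceosome, has 1128 exon bases in common with Amy1 on the same strand. Mucl2 (chr15:103895855-103899312), a mucin-like salivary glycoprotein, shared 0.1% of its windows, with Mucl1. Lpo (chr11:87806428-87828289), the peroxidase that makes antimicrobial hypothiocyanite in saliva and milk, shared none. Neither did Bpifa2 (chr2:154008265-154016079), the parotid secretory protein that binds bacterial lipopolysaccharide, nor Pip (chr6:41847535-41852065), the prolactin-induced protein of saliva, tears and seminal fluid.

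The start regions of 3 other members are shown because these genes behaved differently from each other in the data that follow: Mucl2 was nearly absent without Aire, Lpo lay in the same range with and without it, and Pip was hardly detected. Each is 150 bases of the same RefSeq windows, read on the gene's own strand, at chr15:103899313-103899462 (minus strand), chr11:87826115-87826264 (minus strand) and chr6:41847399-41847548 (plus strand). The Lpo stretch lies inside the Lpo gene model given above (chr11:87806428-87828289). Distances to Lpo given below are taken from the upper end of that model, not from the RefSeq start. Capitals mark the letters TATAAA or CCAAT, searched on both strands, with no overlap between them.
Mucl2: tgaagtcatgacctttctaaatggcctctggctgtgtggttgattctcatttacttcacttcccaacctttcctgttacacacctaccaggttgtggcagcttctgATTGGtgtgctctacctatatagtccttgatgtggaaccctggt
Lpo: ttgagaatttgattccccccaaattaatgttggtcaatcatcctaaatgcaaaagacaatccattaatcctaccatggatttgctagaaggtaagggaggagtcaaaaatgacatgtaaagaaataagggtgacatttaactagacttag
Pip: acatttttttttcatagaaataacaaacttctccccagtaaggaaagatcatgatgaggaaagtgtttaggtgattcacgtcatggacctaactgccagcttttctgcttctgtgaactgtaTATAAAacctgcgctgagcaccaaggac
TATAAA stood in the 300-base windows of 2 members, Pip and 1 of 2 Amy1 starts, and in 13.6% of 32851 RefSeq windows of that length. CCAAT stood in those of Mucl2 and Smr3a, and in 37.4% of all windows. The member windows held between 1 and 4 CG dinucleotides, where the median of all windows was 7. A match of letters is a description of these windows only.

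Compared per kilobase of exon in WT mTEChi, Lpo had the highest level of the members at 58.4 ± 4.71 CPM per kb (SD, n = 7), followed by Mucl2 at 25.9 ± 4.70. Dcpp1 at 9.77 ± 2.93 and Dcpp3 at 7.15 ± 2.34 CPM per kb lay within their spread of each other. Dcpp2 at 3.89 ± 1.14 and Bpifa2 at 2.65 ± 1.64 did too. Smr3a at 0.779 ± 0.887 and Amy1 at 0.665 ± 0.355 CPM per kb were not separable either, and Pip was lowest at 0.157 ± 0.129. In WT mTEClo Lpo again led, at 25.4 ± 3.59 CPM per kb (SD, n = 8). Mucl2 at 1.64 ± 1.48 and Amy1 at 0.895 ± 0.328 followed within their spread of each other, and every other member had a mean of at most 0.293 CPM per kb. Lpo alone thus supplied most counts of the group: the 9 members summed to 233 ± 12.1 CPM in WT mTEChi, and to 49.5 ± 6.93 without Lpo.

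**Figure D1:**
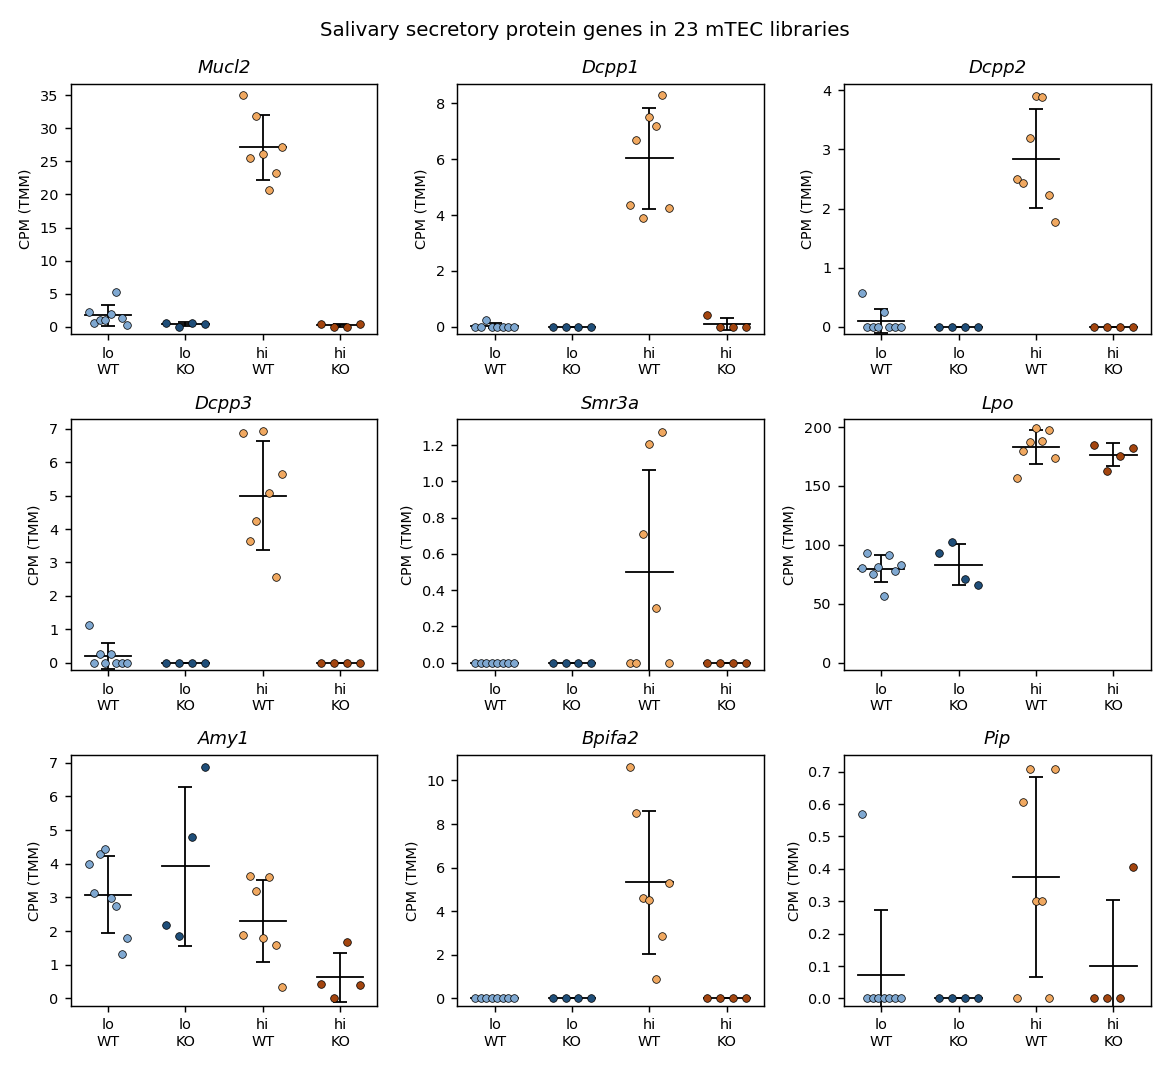
Level of each of the 9 genes (y axis, CPM with TMM scaling, own scale per panel, from 0) in every library, by gate (lo, hi) and genotype (x axis). Points are libraries, and bars are the mean ± SD of 8, 4, 7 and 4 libraries. Mucl2, the Dcpp genes and Bpifa2 are high in WT mTEChi only, Lpo follows the gate in both genotypes, and Amy1 is lowest in AireKO mTEChi.

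In mTEChi, loss of Aire went with near-complete loss of Mucl2, the Dcpp transcripts and Bpifa2, with a smaller fall of Amy1 and with no called change of Lpo. Of the 6 members tested, 5 were lower in AireKO mTEChi and 0 higher (edgeR quasi-likelihood test, Benjamini-Hochberg adjusted p under 0.05). Of all genes tested 53.8% were called by the same rule, 29.5% lower and 24.3% higher. Mucl2, Dcpp1, Dcpp3 and Bpifa2 passed the low-count filter through WT mTEChi, the group where they are high, so the count describes the members and supports nothing further. Over all 9 members, the mTEChi libraries of the genotypes did not overlap for 5 (Mucl2, Dcpp1, Dcpp2, Dcpp3 and Bpifa2), each lower in AireKO, as for 20.8% of all genes tested (16.8% were apart in the other direction). In bulk RNA, fewer cells that make a transcript and less of it per cell cannot be told apart.

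Mucl2 ran from 20.7 to 35.0 CPM with a median of 26.2 in the 7 WT mTEChi libraries. In the 4 AireKO mTEChi libraries it was at 0.428, 0, 0 and 0.406 CPM, which is 1 count in each of 2 libraries. Every WT library was thus far above every AireKO library. On the pooled counts, 494 against 2, the level was 137-fold higher in WT (exact 95% counting interval 37.6 to 1131). The fitted log2 change was -6.91 ± 0.46 (SE), with an edgeR adjusted p of 1.7e-14.

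Dcpp1 ran from 3.90 to 8.28 CPM with a median of 6.68 in WT mTEChi, and in AireKO mTEChi a single count in replicate 1 (0.428 CPM) was all that remained. Dcpp3 ran from 2.55 to 6.92 CPM with a median of 5.09 in WT mTEChi and was at 0 in all 4 AireKO libraries. Dcpp2 ran from 1.77 to 3.91 CPM with a median of 2.50 in WT mTEChi and was likewise at 0 in all 4 AireKO libraries. The 3 copies therefore showed the same picture, with no overlap between genotypes in any of them. Pooled counts of Dcpp1 gave a 64.1-fold higher level in WT (116 counts against 1, exact 95% counting interval 11.3 to 2555). Dcpp3 was at least 17.1-fold and Dcpp2 at least 10.1-fold higher in WT, against the limit of 3 counts over the AireKO group. The edgeR adjusted p was 1.1e-06 for Dcpp1 and 7.3e-07 for Dcpp3. Dcpp2, outside that fit, gave a two-sided exact permutation p of 0.0061, the smallest that 7 against 4 libraries allow, in 1 of 5 such tests made on members outside the fit. Summed over the copies, which takes reads moved between them out of question, the level was 13.9 ± 2.54 CPM in WT mTEChi (SD, n = 7) and 0.107 ± 0.214 in AireKO mTEChi (SD, n = 4).

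Bpifa2 was found in WT mTEChi alone. It ran from 0.898 to 10.6 CPM with a median of 4.61 in WT mTEChi, which is 3 to 17 counts per library, and it was at 0 in every library of the other groups. Its level was at least 15.8-fold higher in WT than in AireKO mTEChi (86 counts against 0), with an edgeR adjusted p of 1.2e-04. Its highest values, 10.6 and 8.50 CPM, came from the 2 WT mTEChi libraries of 4-week mice, and the 5 libraries of 5-week mice lay between 0.898 and 5.31 CPM. Those same 2 libraries are the only WT mTEChi libraries under 2000000 counts, so age and depth cannot be told apart for this difference.

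Smr3a and Pip were near the limit of detection. Smr3a had 11 counts in WT mTEChi, spread over 4 of 7 libraries with a highest level of 1.27 CPM, and 0 in the 16 other libraries. Its exact two-sided permutation p between genotypes in mTEChi was 0.21. Pip had 7 counts over 5 of 7 WT mTEChi libraries, at most 0.709 CPM, and 1 count (0.406 CPM) in AireKO mTEChi, with an exact permutation p of 0.21. For these genes a difference between genotypes was not detectable at this depth.

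Amy1 ran from 0.354 to 3.64 CPM with a median of 1.87 in WT mTEChi. In AireKO mTEChi it was at 0.428, 0, 1.66 and 0.406 CPM. The genotypes overlapped: 3 of the 4 AireKO libraries lay above the lowest WT library, and 1 of them also above the WT library at 1.59 CPM. The fitted log2 change was -1.79 ± 0.65 (SE), edgeR adjusted p = 0.022, and pooled counts were 3.32-fold higher in WT (exact 95% counting interval 1.48 to 8.75). The call was lost without AireKO mTEChi replicate 1, 2 or 4 (adjusted p = 0.063, 0.080 and 0.059) and in male libraries only (0.072). Rnpc3, which shares exon bases with Amy1, was at 29.6 ± 6.90 CPM in WT (SD, n = 7) and 20.2 ± 2.12 in AireKO mTEChi (SD, n = 4), with a log2 change of -0.52 ± 0.23 (SE) and an edgeR adjusted p of 0.054. Its part in the Amy1 result was not tested.

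Lpo showed no called change between the genotypes in mTEChi. It ran from 157 to 199 CPM with a median of 187 in WT mTEChi, and it was at 185, 163, 176 and 183 CPM in AireKO mTEChi. All 4 AireKO libraries fell inside the WT range. The fitted log2 change was -0.08 ± 0.11 (SE), edgeR adjusted p = 0.59, and the pooled ratio of WT to AireKO was 1.06 with an exact 95% counting interval of 0.997 to 1.12, from 3475 and 1821 counts.

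**Figure D2:**
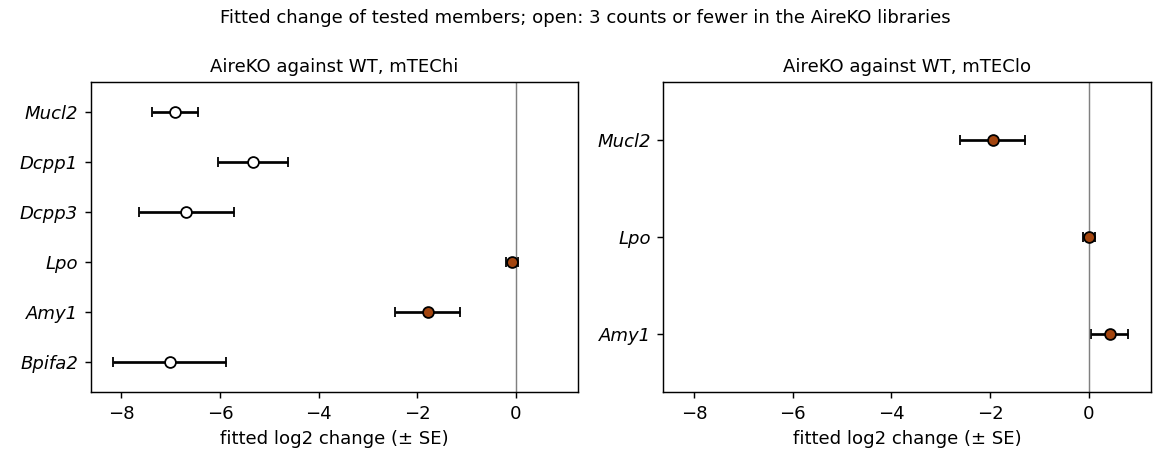
Fitted log2 change of AireKO against WT (x axis, point ± SE) for the tested members (y axis) in mTEChi and mTEClo. Members with under 5 counts in both mTEClo groups are left out on the right, and open points have 3 counts or fewer in the AireKO libraries, so that their size depends on the model. Lpo lies at -0.08 in mTEChi while Mucl2 lies at -6.91.

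Lpo lies between 2 other peroxidase genes, Mpo, the myeloperoxidase of neutrophil granules, and Epx, the eosinophil peroxidase, whose starts lie at -34.7 kb and 47.2 kb from its own (negative towards lower coordinates). They were picked for this comparison after their values had been seen. Their coding sequences are 62.0% and 61.1% identical to that of Lpo, and none of the 50-base windows of Lpo occurs in another gene. Mpo ran from 29.1 to 69.1 CPM with a median of 58.0 in WT mTEChi and was at 9.42, 9.09, 14.3 and 9.33 CPM in AireKO mTEChi. Epx ran from 39.4 to 51.6 CPM with a median of 46.7 in WT mTEChi and was at 10.3, 7.11, 6.66 and 6.08 CPM in AireKO mTEChi. For both the genotypes were fully apart. The log2 change was -2.41 ± 0.47 (SE) for Mpo (edgeR adjusted p = 2.1e-04) and -2.72 ± 0.50 for Epx (1.3e-04). The peroxidases on either side of Lpo were thus lower without Aire while Lpo stayed within the WT range. A test of the difference between these genes was not made.

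**Figure D3:**
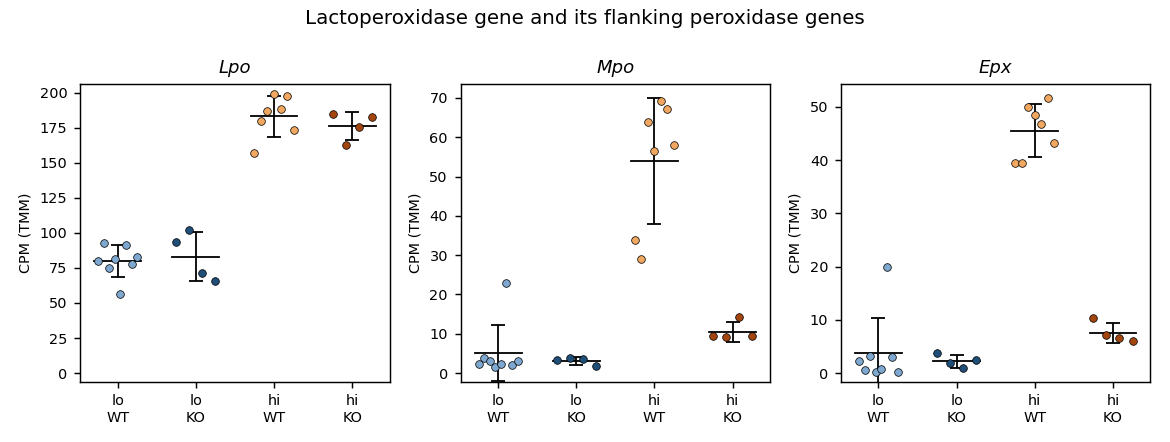
Levels of Lpo and of the peroxidase genes on either side of it (y axis, CPM with TMM scaling, own scale per panel, from 0) in every library by gate and genotype (x axis). Points are libraries, and bars are the mean ± SD. In AireKO mTEChi Mpo and Epx lie at 14.3 CPM or less, and Lpo at 163 CPM or more.

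In mTEClo all members but Lpo were scarce in both genotypes, and 1 of the 6 tested, Mucl2, was lower in AireKO, where 23.3% of all genes tested were called, 9.50% lower and 13.8% higher. Mucl2 ran from 0.298 to 5.19 CPM with a median of 1.19 in WT mTEClo, and it was at 0.545, 0, 0.600 and 0.491 CPM in AireKO mTEClo. The genotypes overlapped for Mucl2, as for each other member; 5.34% of all genes tested were apart with AireKO lower and 6.48% with AireKO higher. Its log2 change was -1.95 ± 0.66 (SE) with an edgeR adjusted p of 0.029. WT replicate 6, at 5.19 CPM, stood above the other WT libraries, which reached at most 2.27 CPM, and without it the adjusted p was 0.091. The same library had the highest Aire level of that group (128 CPM), as well as the highest Mpo (22.9 CPM) and Epx (19.8 CPM), whose other WT mTEClo libraries lay at 3.74 CPM or less. The call was also lost without AireKO mTEClo replicate 2, 3 or 4 (adjusted p = 0.061, 0.060 and 0.073), with age in the fit (0.087) and without libraries under 2000000 counts (0.10). The AireKO libraries came from mice of 5 and 6 weeks and the WT ones from mice of 4 and 5 weeks.

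Lpo in mTEClo ran from 56.6 to 93.0 CPM with a median of 80.7 in WT, and it was at 93.2, 102, 71.1 and 66.0 CPM in AireKO, a log2 change of 0.02 ± 0.12 (SE) with an edgeR adjusted p of 0.94. Amy1 ran from 1.33 to 4.43 CPM with a median of 3.06 in WT mTEClo and was at 2.18, 1.87, 4.80 and 6.87 CPM in AireKO, a log2 change of 0.43 ± 0.38 (SE) with an edgeR adjusted p of 0.44. Neither passed the test, and for both genes the genotypes overlapped. The 3 Dcpp genes had 1, 2 and 4 counts over the 8 WT mTEClo libraries and 0 in AireKO. Pip had 1 count in WT mTEClo and 0 in AireKO, and Smr3a and Bpifa2 had 0 in both. These values do not allow a comparison of genotypes in this gate.

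Between the gates of WT mice, 5 of the 6 tested members were higher in mTEChi and 0 lower, where 70.7% of all genes tested were called, 37.2% higher and 33.4% lower. Mucl2, Dcpp1, Dcpp3 and Bpifa2 had passed the filter through WT mTEChi, so this count too is only a description. Mucl2, Dcpp1, Dcpp2, Dcpp3, Bpifa2 and Lpo did not overlap between the gates, as for 25.0% of genes tested in that direction (18.9% in the other). The log2 change from mTEClo to mTEChi was 3.88 ± 0.23 (SE) for Mucl2 (edgeR adjusted p = 1.1e-17), and pooled levels differed 15.2-fold (exact 95% counting interval 11.1 to 21.3). For Dcpp3 they differed 30.8-fold (11.6 to 116) and for Bpifa2 at least 38.0-fold. Lpo moved least of the 5 called members, by 1.21 ± 0.093 (SE) on the log2 scale (edgeR adjusted p = 1.2e-12), or 2.38-fold on pooled counts. Amy1, with a log2 change of -0.47 ± 0.36 (SE) and an edgeR adjusted p of 0.24, did not pass.

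In AireKO mice 1 of the 6 tested members was higher in mTEChi (Lpo) and 1 lower (Amy1), where 58.0% of genes tested were called, 27.9% higher and 30.1% lower. Lpo rose by 1.11 ± 0.13 (SE) on the log2 scale from mTEClo to mTEChi (edgeR adjusted p = 1.3e-08), and every mTEChi library was above every mTEClo library, as for 23.7% of genes tested in that direction. Amy1 changed by -2.69 ± 0.60 (SE) on the log2 scale (edgeR adjusted p = 2.9e-04), also with no overlap, as for 23.6% of genes tested in that direction. Rnpc3 changed the same way in this comparison, by -0.71 ± 0.24 (SE) on the log2 scale (edgeR adjusted p = 0.012). Its part in the Amy1 result was again not tested.

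Whether the Aire effect itself differed between the gates was tested with an interaction term. It was larger in mTEChi for 2 of the 6 tested members, Mucl2 and Amy1, where 24.1% of all genes tested were called, 15.4% in that direction and 8.75% in the other. The difference of the log2 changes was -4.97 ± 1.37 (SE) for Mucl2 (edgeR adjusted p = 0.0065), which rests on 2 counts in AireKO mTEChi and 5 in AireKO mTEClo. It was -2.22 ± 0.74 (SE) for Amy1 (edgeR adjusted p = 0.027). Lpo had a difference of -0.09 ± 0.16 (SE) with an edgeR adjusted p of 0.73. For Dcpp1, Dcpp3 and Bpifa2, which had no count in AireKO mTEClo, edgeR gave terms that are not readable, with an SE of 44.1 or more on the log2 scale, and none was called. DESeq2 called 5 of the 6 terms, all lower, and with a group at 0 the size of such a term depends on the model. The Mucl2 term was lost in 5-week male libraries (-2.78, adjusted p = 0.53). The Amy1 term was lost without AireKO mTEClo replicate 4 (0.11), WT mTEChi replicate 5 (0.062) or AireKO mTEChi replicate 1, 2 or 4 (0.066, 0.076 and 0.061), and in male libraries (0.12).

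In salivary glands several of these proteins are known to differ between the sexes. In WT mTECs, 0 of the 6 tested members differed between female and male libraries by the edgeR test, 0 had an unadjusted p under 0.05, and DESeq2 called 0, where 0.0414% of all genes tested were called by edgeR (0.0259% lower and 0.0155% higher in females). The fitted female minus male log2 change ran from -1.05 (Bpifa2) to 0.37 (Dcpp1). Smr3a, the gland's androgen-regulated member, was at 0.299 and 1.20 CPM in the 2 female WT mTEChi libraries and between 0 and 1.27 CPM in the 5 male ones, so the sexes overlapped.

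Other secreted proteins of salivary gland, from a list of 30 of which 20 passed the filter, were also mostly lower in AireKO mTEChi. The lists used here were chosen with earlier results of these data known, and their counts support nothing further. Of the 20 tested, 18 were lower in AireKO mTEChi, 0 higher and 2 not called (29.5% and 24.3% of all genes tested were lower and higher), with a median log2 change of -3.67 beside -0.05 for all genes tested. Slpi, a protease inhibitor of mucosal secretions, fell from 26.3 ± 6.43 CPM (SD, n = 7) to 0.981 ± 0.266 (SD, n = 4), edgeR adjusted p = 4e-13. Crisp3, a cysteine-rich secretory protein of salivary gland, fell from 10.3 ± 3.95 CPM to 0 in all 4 libraries, at least 34.6-fold (edgeR adjusted p = 9.8e-10). Ren1, the renin gene, fell from 5.85 ± 0.902 CPM to 0.101 ± 0.203 (edgeR adjusted p = 5.3e-09). In mTEClo 5 of the 20 were lower and 1 higher, beside 9.50% and 13.8% of all genes tested. Dmbt1, a salivary agglutinin that binds bacteria, fell there from 27.7 ± 10.2 CPM (SD, n = 8) to 5.60 ± 6.41 (SD, n = 4), edgeR adjusted p = 0.0015. Car6, the secreted carbonic anhydrase of saliva, fell from 2.98 ± 2.83 to 0.123 ± 0.245 CPM (edgeR adjusted p = 0.0021).

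Of 18 paralogs of the members (3 of them, Mucl1, Smr2 and Bpifa1, also in the list above), 6 passed the filter, and these 6 were lower in AireKO mTEChi, as were 29.5% of all genes tested. Bpifa5, a relative of Bpifa2, fell from 10.3 ± 3.15 CPM (SD, n = 7) to 0.0988 ± 0.198 (SD, n = 4), edgeR adjusted p = 5.1e-10. Mucl1, the closest relative of Mucl2, fell from 7.87 ± 2.35 to 0.492 ± 0.217 CPM (1.2e-08). The pancreatic amylase genes Amy2a1 to Amy2a5 had no count in any library. How reads common to several gene copies were counted was not stated, so these values of 0 do not show absence. Bpifa1, a secreted airway and oral protein, was the exception in mTEClo. It fell in mTEChi from 79.1 ± 30.3 to 6.78 ± 3.34 CPM (edgeR adjusted p = 1.7e-05) but rose in mTEClo from 45.0 ± 19.0 (SD, n = 8) to 121 ± 66.8 CPM (SD, n = 4), edgeR adjusted p = 0.014. The difference between the gates was -4.89 ± 0.64 (SE) on the log2 scale, edgeR adjusted p = 1.4e-05.

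Among 18 genes of the secretory machinery and of its regulators in salivary cells, all tested, 10 were lower, 2 higher and 6 not called in AireKO mTEChi (53.8% of all genes tested were called, 29.5% lower and 24.3% higher), with a median log2 change of -1.12. Slc12a2, the chloride importer that drives fluid secretion, fell from 102 ± 16.8 CPM (SD, n = 7) to 34.5 ± 1.00 (SD, n = 4), edgeR adjusted p = 6.1e-11. Creb3l1, a transcription factor of secretory cells, fell from 13.1 ± 2.73 to 1.71 ± 1.20 CPM (1.7e-08), and rose in mTEClo from 6.13 ± 1.45 (SD, n = 8) to 14.1 ± 2.65 CPM (SD, n = 4), 7.3e-05. Sox9, a regulator of glandular progenitors, rose in mTEChi from 98.3 ± 19.1 to 196 ± 21.1 CPM (1.3e-06) and in mTEClo from 226 ± 28.2 to 318 ± 69.1 CPM (edgeR adjusted p = 0.0064). Xbp1 and Bhlha15, which set up the secretory pathway of acinar cells, were at 89.0 and 6.06 CPM in WT mTEChi and at 91.1 and 6.39 CPM in AireKO mTEChi, and neither passed the test. They were named after their values had been seen.

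In mTEChi the summed levels of some other marker lists were apart between the genotypes, and those of others overlapped. Of all genes tested 53.8% were called there, 29.5% lower and 24.3% higher. The 5 regulators taken as markers of acinar and duct cells (Bhlha15, Aqp5, Sox10, Elf5 and Ascl3) summed to between 23.1 and 40.8 CPM in WT mTEChi and between 7.11 and 14.6 CPM in AireKO mTEChi. Of these 3 were lower, 0 higher and 2 not called, and none was at 0 in a group. In mTEClo they summed to between 14.6 and 26.2 CPM in WT and between 16.2 and 21.2 CPM in AireKO. The 6 thymocyte markers summed to between 60.9 and 78.1 CPM in WT mTEChi and between 36.6 and 49.1 CPM in AireKO mTEChi (3 lower of 4 tested), and the 6 cortical epithelial markers to between 509 and 592 and between 685 and 838 CPM (2 lower and 3 higher of 6). Dendritic cell and macrophage markers summed to between 260 and 312 CPM in WT mTEChi and between 307 and 353 CPM in AireKO mTEChi. Of these 5 genes 3 were lower and 1 higher. Fibroblast markers summed to between 92.5 and 227 and between 63.4 and 102 CPM in the same order. Of these 4 genes 2 were lower and 2 higher. Endothelial markers (3 genes) summed to between 22.9 and 37.5 and between 18.7 and 24.5 CPM (1 lower and 0 higher of 2 tested). B cell markers (3 genes) summed to between 14.0 and 20.5 and between 14.6 and 15.0 CPM (1 lower and 0 higher of 2 tested). Ptprc, the CD45 gene, lay between 9.55 and 36.2 and between 5.27 and 6.72 CPM and was called lower. None of these markers was at 0 in either mTEChi group. More genes had a count in WT mTEChi (28028 to 32252 per library) than in AireKO mTEChi (24991 to 26624). The part of these differences in the members' results was not tested.

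**Figure D4:**
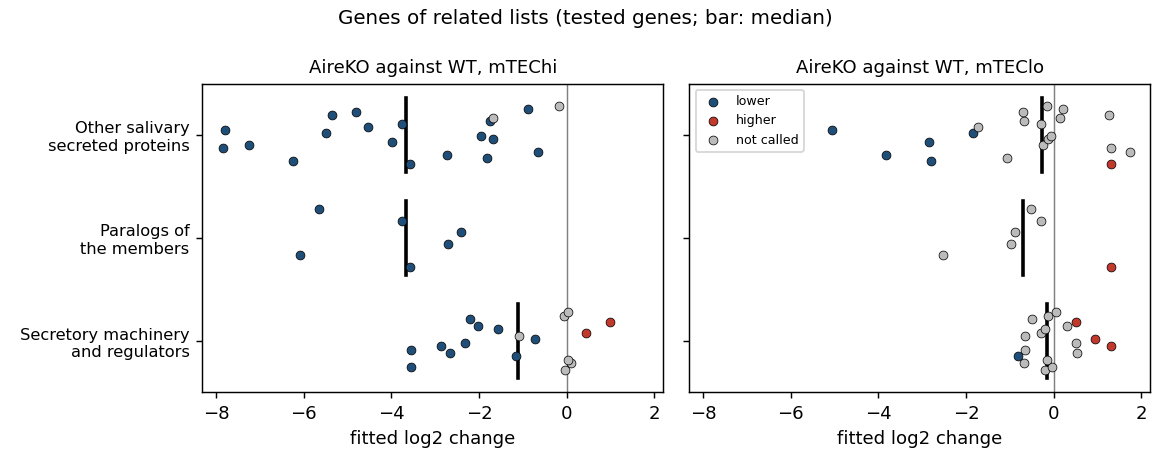
Fitted log2 change of AireKO against WT (x axis) for the tested genes of the 3 related lists (y axis), in mTEChi and mTEClo. Each point is a gene, blue where lower, red where higher and grey where not called, and bars are medians. In mTEChi 18 of 20 other salivary secreted proteins are lower, and in mTEClo 5.

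The genes around the members were then described, since position was not used to choose them. Distances are between the starts of the annotated gene models, negative towards lower coordinates, and at the Dcpp genes from the nearest of the 3 starts. Within 250 kb of the member starts lay 78 other protein-coding genes, of which 53 were tested. In AireKO mTEChi 22 of these were lower, 8 higher and 23 not called, and 53.8% of all genes tested were called in that comparison (29.5% lower and 24.3% higher). The share of neighbours called in either direction was thus near that of all genes, with a larger part of the calls lower. Of the 22 lower, 8 lie at the Bpifa2 locus alone. Several lower neighbours, such as Bpifb3, Sbpl and Kel, were near 0 outside WT mTEChi and passed the low-count filter through that group. The count therefore describes the neighbours and supports nothing further. Mucl1, Mpo, Epx, Bpifa1, Bpifa5, Bpifb1 and Bpifb2 are among the lower neighbours and also in the lists above, so these counts are not separate. At the Bpifa2 locus 8 of 9 tested neighbours were lower and the median log2 change was -5.32. All 8 belong to the same gene family of lipid-binding secreted proteins (Bpifa and Bpifb). Bpifb3, at -90.0 kb, fell from 20.4 ± 4.61 CPM (SD, n = 7) to 0 in all 4 libraries (edgeR adjusted p = 2.1e-12), and Bpifb5, at 215.5 kb, from 13.3 ± 3.02 to 0.206 ± 0.238 CPM (7.6e-13).

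Around the Dcpp genes the neighbours went both ways, with 5 lower, 6 higher and 14 not called of 25 tested and a median log2 change of -0.17. The 2 with the smallest p lie beyond Dcpp3, their nearest member: Sbpl, at 37.8 kb, fell from 20.2 ± 4.36 CPM (SD, n = 7) to 0 in all 4 libraries (edgeR adjusted p = 2.6e-11), and Sbp, which codes for a spermine-binding protein, at 24.2 kb, from 6.59 ± 2.28 CPM to 0 in all 4 (7.4e-09). Around Lpo 4 of 12 were lower and 2 higher. Rnf43, a membrane ubiquitin ligase of Wnt signalling, at -165.6 kb, rose from 77.8 ± 10.3 to 127 ± 8.11 CPM (1.1e-06), and Srsf1, a splicing factor, at 219.1 kb, fell from 161 ± 28.7 to 99.5 ± 9.51 CPM (3.9e-05).

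The other loci held few tested neighbours. Mucl1, at -143.8 kb from Mucl2, was its only one. Near Pip, Kel, a blood group peptidase at -143.2 kb, fell from 14.5 ± 3.50 CPM (SD, n = 7) to 0.101 ± 0.203 (SD, n = 4), edgeR adjusted p = 3.6e-09, and Trpv6, an epithelial calcium channel, from 5.66 ± 2.62 to 1.00 ± 0.781 CPM (1.7e-05). Near Smr3a the casein genes differed from each other: Csn1s2a fell from 36.2 ± 10.7 to 0.281 ± 0.374 CPM (4.1e-16), while Csn3 was at 12.2 ± 4.20 and 8.37 ± 4.24 CPM and did not pass (edgeR adjusted p = 0.12; named after its value had been seen).

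**Figure D5:**
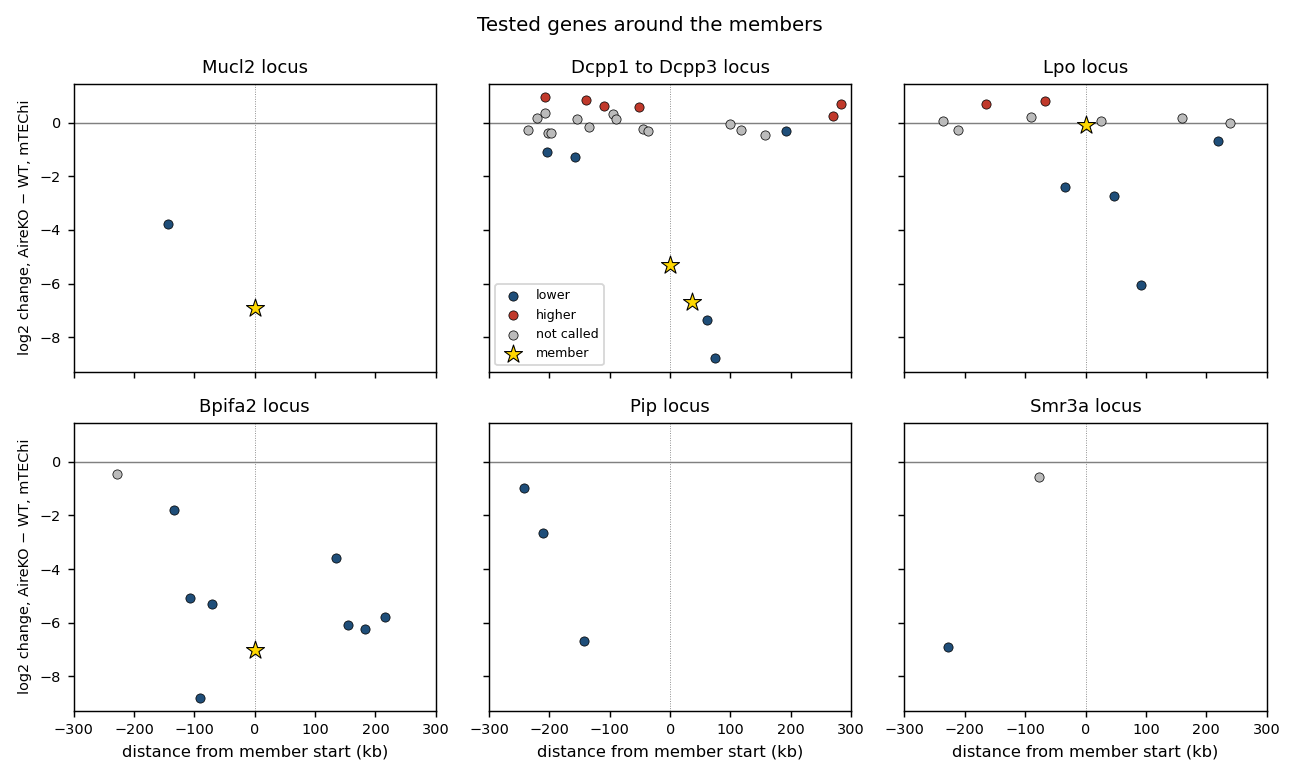
Fitted log2 change in AireKO mTEChi against WT (y axis) of the tested genes within 250 kb of a member, by distance from the member's start in kb (x axis; at the Dcpp locus from the start of Dcpp1), for 6 loci. Circles are neighbours, blue where lower, red where higher and grey where not called, and stars are tested members. At the Bpifa2 locus 8 of 9 neighbours are lower, and at the Lpo locus Lpo lies near 0 with Mpo and Epx lower on either side.

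The profile of Mucl2 over the 23 libraries was most like those of Spp2, a secreted phosphoprotein (Pearson r = 0.974 on log2 CPM), Igsf1, an immunoglobulin superfamily membrane protein (0.974), and Nts, the neurotensin precursor (0.971), of 17358 genes compared. All 3 had means of 0 to 0.107 CPM in both AireKO groups, and of 6.04, 16.2 and 49.2 CPM in WT mTEChi. The summed counts of the 9 members, most of which are Lpo, were most like Cd80, a costimulatory ligand of mTEChi (r = 0.979), Ccr4, a chemokine receptor (0.975), and Cxcl2, a chemokine (0.974). Cd80 was at 203 CPM in WT mTEChi, 134 in AireKO mTEChi and 27.5 in AireKO mTEClo. These correlations are a description, since the libraries fall into 4 groups and each pair of values shares a library.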

How the data were processed

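The authors deposited a table of raw counts per Ensembl gene for 23 libraries, and a second table of normalized signal for 20236 genes, with no unit stated. The submitters' processing notes name HTSeq 0.11.2, STAR 2.7.3a, edgeR, fastp 0.20.0, Picard 2.21.1 and SAMtools 1.9, without their roles, and the builds mm10 and GRCm38. After multiplication by 1 factor per library, 100% of the deposited signal values were whole reads (within 0.001). edgeR on these reads, an alternative chosen after the data were seen, called 10485 genes in AireKO mTEChi and 4521 in AireKO mTEClo, of 19304 tested.

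Of 53402 identifiers 53316 had a symbol in GENCODE M21 (GRCm38). Low-count genes were removed with filterByExpr on the groups (minimum count 10), and edgeR 4.0.16 in R 4.3.3 was run with TMM factors, robust quasi-likelihood fits over all libraries and terms for group and sex. The sex term rests on WT, since all AireKO libraries were male. The SE was taken from the F statistic, as the size of the log2 change over the root of F. Calls use a Benjamini-Hochberg adjusted p under 0.05 over all genes tested. The fits were tested on simulated data. Members outside the filter were compared by exact two-sided permutation tests. A fold against 0 uses a limit of 3 counts over the group, and one against 1 to 3 counts an exact 95% interval.

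The members, the lists and the tests were chosen with earlier results of these data known. Named besides the members are, per list, the 3 genes with the smallest p in AireKO mTEChi and the 2 smallest called in mTEClo, up to 2 neighbours per locus and the 3 most similar profiles (at least 5 CPM in some group); 1 gene that this rule names is not reported here. Identity was computed on coding sequence, since proteins were not used here. Alternatives covered scaling, filter, test (DESeq2 1.42.0), covariates, subsets and each library left out.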

Additional observations from a re-analysis of the deposited data

Results flagged for a closer look

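Of 24 sets of member values with any spread, 7 held a library far from the others of its group, and chance flags about 1 in 20 groups. Mucl2 in WT mTEClo replicate 6 was at 5.19 CPM (17 counts), with the next library at 2.27 CPM. The other 6 rest on 1 or 2 counts, and the chance rate does not hold for any of them. Where 1 library holds the only count of its group (both Dcpp1 and both Pip values) it stands apart by construction. For Dcpp2 the 2 libraries with a count held 1 each, so their levels differ through library size alone. Of these 6, 3 were Dcpp1 in WT mTEClo replicate 3 (0.253 CPM), Dcpp1 in AireKO mTEChi replicate 1 (0.428 CPM) and Pip in AireKO mTEChi replicate 4 (0.406 CPM). The rest came from WT mTEClo replicate 1, a library under 2000000 counts, with Dcpp2 at 0.568 CPM, Dcpp3 at 1.14 CPM and Pip at 0.568 CPM.

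The Aire effect differed between the gates for Mucl2, with a difference of -4.97 on the log2 scale, and for Amy1, with -2.22. Both interaction terms passed the edgeR test.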

How the results depend on the processing

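Members called in AireKO mTEChi numbered 5, and 1 with a minimum count of 30 (2 tested) and 3 in male libraries (5 tested), with 4 to 5 when libraries were left out in turn. In AireKO mTEClo the 1 call became 0 at an adjusted p under 0.01, with age in the fit, in the mTEClo gate alone (2 tested, Mucl2 no longer among them) and without libraries under 2000000 counts, with 0 to 1 over left-out libraries. Between the gates a minimum count of 30 left 2 calls in WT and 1 in AireKO, and 5-week males left 1 in AireKO. The 2 interaction calls became 1 at an adjusted p under 0.01, with a minimum count of 30 and in males, 0 in 5-week males and 5 with DESeq2, with 1 to 2 over left-out libraries. Outside the filter, the 1 member passing after adjustment over 5 tests (Dcpp2) became 0 without libraries under 2000000 counts, where no member could pass: the smallest p there is 0.016 (0.064 after adjustment over 4 tests), and Dcpp2 reached it, with 0 in every AireKO mTEChi library. Lpo in mTEClo turned from 0.02 to -0.021 (upper quartile), -0.010 (the deposited scaling), -0.014 (no filter), -0.033 (age), -0.043 (males), -0.053 (gate alone), -0.23 (without libraries under 2000000), -0.0028 (depth term) and -0.0033 (recovered reads), and ran from -0.091 to 0.094 over left-out libraries. Its gate difference turned from -0.09 to 0.0082 in males and 0.14 without libraries under 2000000, with -0.15 to 0.014 over left-out libraries. Amy1 in mTEClo ran from -0.051 to 0.58 over left-out libraries. The cause was not tested. Of the values of single genes under an alternative, 770 kept their direction and side of the threshold, 21 lost a call and 23 turned sign. Over all genes, calls in AireKO mTEClo fell from 4505 to 1593 with age and 1566 in 5-week males, interaction calls from 4663 to 2195 in 5-week males, and sex calls from 8 to 5 in mTEClo alone. Same-numbered libraries were not treated as pairs. Correlations of their deviations ran from -0.192 to 0.201, and few correlated best with their own number. Between the gates of AireKO mice they ran from 0.0573 to 0.135. This check cannot show whether libraries came from the same animals. With a replicate block the calls numbered 5, 1, 5, 2, 2 and 0, as without it.

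In mTEClo the Dcpp genes, Smr3a, Pip and Bpifa2 held 0 to 4 counts per gene and group, too few to compare the genotypes.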
